A study of Mus musculus with 7 samples.

Results

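The loci of 8 Krüppel-like factor genes, *Klf2*, *Klf3*, *Klf5*, *Klf6*, *Klf7*, *Klf9*, *Klf10* and *Klf13*, were followed by ATAC-seq, which cuts nuclei with Tn5 transposase and so marks open chromatin, through the reprogramming of mouse embryonic fibroblasts (MEFs). These are 8 of 21938 protein-coding genes, and a called peak counted for a gene when it overlapped the gene body extended by 20 kb on each side (mm10, GENCODE M21). In all, 205 of the 293147 peaks of the series did so. When touching or overlapping peaks of all libraries were merged, they formed 61 regions of the 104346 in the genome, and 76504 regions lay within 20 kb of some protein-coding gene and served as the background. A region was called open in a library when a peak of that library overlapped it by at least 1 bp.

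The 6 MEF-derived libraries came from cells that carry tetO-Pou5f1,-Klf4,-Sox2,-Myc in the *Col1a1* locus and rtTA*M2 in the ROSA26 locus, so the factors induced in each treated library include a member of the same family, Klf4. The day 0 library was untreated, and the other 5 received doxycycline (2 µg/mL) for 1, 2, 3, 6 or 9 days. The last of the 7 libraries came from untreated embryonic stem cells (ESCs), labelled as the Bruce-4 line but with the genotype entry of the MEFs. The MEFs were made from embryos without head, heart and liver, and the treated cultures were bulk populations, whose medium was changed to ESC medium when the first colonies appeared, before day 9. With a single library for each time-point, libraries could not be tested against each other and every value below stands without a replicate. Where 7 values are given together, they follow the order day 0, day 1, day 2, day 3, day 6, day 9, ESCs.

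The libraries differed in their number of called peaks, from 61241 on day 0 and between 33007 and 48087 on days 1 to 9 to 27074 in ESCs, although the authors had downsampled the reads to a common depth. The lists give positions only, so the reads behind a peak are unknown, and a missing peak means that enrichment was not detected, not that the site was closed. Of 8 genes typical of fibroblasts (among them *Thy1*, *Twist1* and *Col1a2*), 6 had a peak within 1 kb of a start on day 0 and 2 in ESCs. Among all protein-coding genes, 58.4% had such a peak on day 0 and 49.2% in ESCs. Of 8 ESC genes, 3 had one on day 0 (*Esrrb*, *Tdgf1*, *Tfcp2l1*) and only *Zfp42* and *Fgf4* in ESCs, so the start of *Nanog* and the start of *Sox2* had no called peak in the library labelled ESCs. Within 20 kb, 6 of the 8 ESC genes had a region with a peak in ESCs and none on day 0, and 6 had one with the reverse, *Nanog* and *Sox2* among them. For the fibroblast genes these numbers were 4 and 6 of 8. The shares of all genes with such regions are not given here. At the starts of 4 endothelial genes the number was 3 on day 0 and 0 or 1 later, and of 4 haematopoietic genes 3 on day 0 and 1 or 2 later, while 4 epithelial genes had 0 or 1 in each library. The part of such cells in the values below was not tested.

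Krüppel-like factors are zinc finger proteins that bind GC-rich and CACCC-type sequences through a conserved C-terminal domain, and differ in the N-terminal part that recruits activators or repressors. Klf2 and Klf5 act with Klf4 in the network that keeps mouse ESCs in the naive state. Klf3 is a repressor that works through CtBP, while Klf9, Klf10 and Klf13 repress through Sin3A. Klf10 was found as an early gene of TGF-β signalling, and Klf9 can be induced by glucocorticoids. Klf6 and Klf7 are related activators, Klf6 being expressed in many tissues and Klf7 being best known from neurons.

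To show the sites at which the libraries differed, 8 regions are given by their reference sequence (mm10, plus strand), 300 bases around the midpoint of each merged region. For each gene with such a region outside untranslated sequence, the widest one was taken from the pattern, ESCs alone or day 0 alone, that the gene had most of, and the *Klf2* region 7.83 kb upstream and the *Klf13* region 18.3 kb upstream were added after their values were seen. Capitals mark the letters searched for, namely GGGTGTGG (a KLF site), ATGCAAAT (the octamer bound by Oct4) and TGACTCA (AP-1), on either strand. Sequences of 300 bases around the midpoints of all 76504 background regions held these letters in 5.23%, 2.84% and 16.0% of cases.
Klf2, 7.83 kb upstream, open on day 9 and in ESCs, chr8:72311057-72311356: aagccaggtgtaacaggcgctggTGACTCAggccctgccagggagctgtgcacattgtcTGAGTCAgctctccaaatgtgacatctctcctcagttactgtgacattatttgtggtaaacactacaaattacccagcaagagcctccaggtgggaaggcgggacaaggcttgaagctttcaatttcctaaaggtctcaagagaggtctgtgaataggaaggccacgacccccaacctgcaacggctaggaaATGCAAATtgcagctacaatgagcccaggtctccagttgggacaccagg
Klf2, 2.75 kb upstream, open in ESCs alone, chr8:72316132-72316431: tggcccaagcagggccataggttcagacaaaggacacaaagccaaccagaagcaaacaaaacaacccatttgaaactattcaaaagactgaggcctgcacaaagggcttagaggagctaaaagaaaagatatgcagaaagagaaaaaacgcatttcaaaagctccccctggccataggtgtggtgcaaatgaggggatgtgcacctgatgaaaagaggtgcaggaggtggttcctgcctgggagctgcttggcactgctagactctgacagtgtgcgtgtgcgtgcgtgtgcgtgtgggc
Klf13, 18.3 kb upstream, open in every library but day 0, chr7:63957092-63957391: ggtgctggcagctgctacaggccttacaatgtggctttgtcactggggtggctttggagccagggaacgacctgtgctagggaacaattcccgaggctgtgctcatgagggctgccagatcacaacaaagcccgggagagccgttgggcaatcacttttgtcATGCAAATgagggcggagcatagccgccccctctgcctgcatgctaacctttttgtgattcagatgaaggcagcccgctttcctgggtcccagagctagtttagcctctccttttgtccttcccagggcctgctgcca
Klf10, 12.6 kb upstream, open in ESCs alone, chr15:38313108-38313407: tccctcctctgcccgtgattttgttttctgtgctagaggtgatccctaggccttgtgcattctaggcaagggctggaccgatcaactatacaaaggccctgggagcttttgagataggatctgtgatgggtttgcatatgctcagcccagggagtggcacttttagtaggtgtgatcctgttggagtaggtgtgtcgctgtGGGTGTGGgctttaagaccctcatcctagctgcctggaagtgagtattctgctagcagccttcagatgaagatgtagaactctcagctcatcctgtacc
Klf3, 7.43 kb upstream, open on day 0 alone, chr5:64795810-64796109: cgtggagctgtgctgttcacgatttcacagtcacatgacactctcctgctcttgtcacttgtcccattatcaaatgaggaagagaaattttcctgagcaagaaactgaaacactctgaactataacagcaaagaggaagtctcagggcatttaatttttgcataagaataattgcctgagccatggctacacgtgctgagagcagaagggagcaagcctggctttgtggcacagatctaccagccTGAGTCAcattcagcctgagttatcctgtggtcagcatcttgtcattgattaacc
Klf7, 43.7 kb into the gene, open on day 0 alone, chr1:64078439-64078738: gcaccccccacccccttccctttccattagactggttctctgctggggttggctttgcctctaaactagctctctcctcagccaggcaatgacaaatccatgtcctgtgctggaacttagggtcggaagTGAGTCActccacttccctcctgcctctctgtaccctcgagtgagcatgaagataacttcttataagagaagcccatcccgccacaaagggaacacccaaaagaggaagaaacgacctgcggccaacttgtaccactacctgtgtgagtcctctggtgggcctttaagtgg
Klf9, 18.7 kb into the gene, open on day 0 alone, chr19:23159791-23160090: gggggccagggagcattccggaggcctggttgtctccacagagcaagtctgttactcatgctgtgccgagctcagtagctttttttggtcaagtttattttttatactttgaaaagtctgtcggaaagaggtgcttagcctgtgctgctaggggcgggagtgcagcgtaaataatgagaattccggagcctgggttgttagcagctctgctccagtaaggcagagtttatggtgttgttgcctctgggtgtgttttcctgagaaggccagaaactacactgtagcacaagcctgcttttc
Klf13, 2.41 kb into the gene, open on day 0 alone, chr7:63936360-63936659: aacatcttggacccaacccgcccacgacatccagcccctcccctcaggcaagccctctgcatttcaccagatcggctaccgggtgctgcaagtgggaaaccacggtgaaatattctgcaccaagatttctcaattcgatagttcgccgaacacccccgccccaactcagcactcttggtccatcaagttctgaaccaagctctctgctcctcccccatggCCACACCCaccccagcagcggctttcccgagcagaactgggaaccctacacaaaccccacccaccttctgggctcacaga

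All 8 genes had a peak within 1 kb of a start of a protein-coding transcript in each of the 7 libraries. Among protein-coding genes, such a peak was present in 58.4, 54.5, 50.5, 55.1, 56.2, 52.3 and 49.2% in time order, and in every library in 41.7%. Each gene thus kept at least 1 start with a peak throughout, and what varied at the 5′ end was the width of the peak. In bp under peaks within 1 kb of the 5′ end, *Klf2* had 821, 591, 645, 646, 720, 638 and, in ESCs, 637. *Klf5* had 787, 681, 661, 748, 823, 787 and, in ESCs, 634 bp. Both genes of the ESC network thus had no wider start in ESCs than on day 0. *Klf7* had the largest range, with 969, 894, 756, 1233, 1226, 1046 and 570 bp, so that it was widest on days 3 and 6 and narrowest in ESCs. The other 5 genes lay between 523 bp (*Klf10* in ESCs) and 1095 bp (*Klf13* on day 0). The median over the 8 genes was 814.5 bp on day 0 and 650 bp in ESCs, and the median over all genes with a peak there was also lower in ESCs, 549 bp against 689 bp on day 0. At *Klf3* the region also lies within 1 kb of the starts of the non-coding genes *Gm20033* and *C230096K16Rik*, and cannot be assigned to 1 of the 3 genes.

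**Figure D1:**
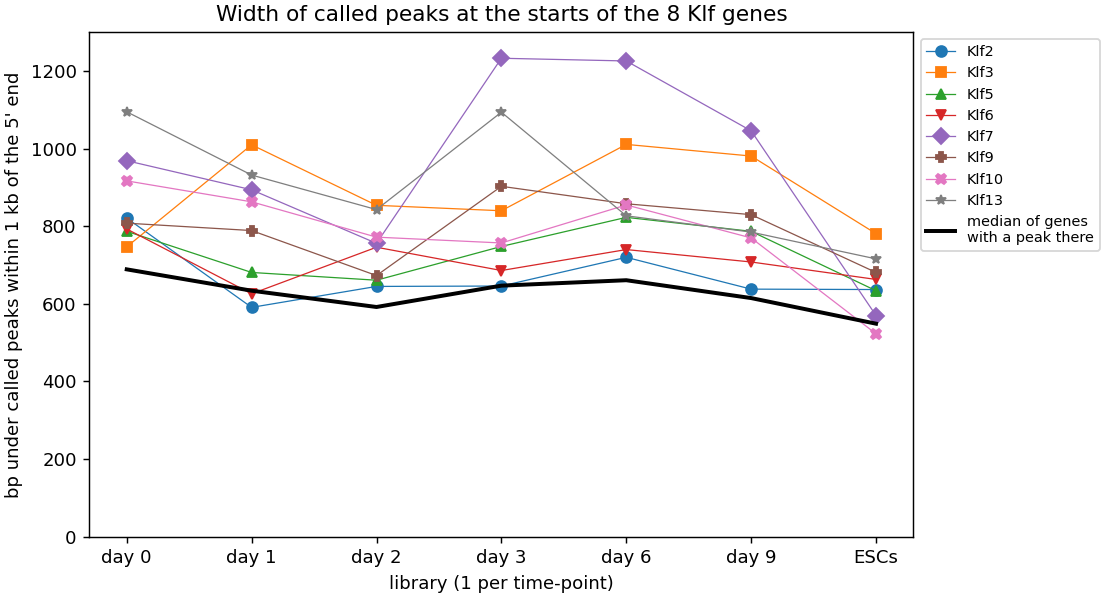
Width of called peaks within 1 kb of the 5′ end (bp, vertical axis) in each of the 7 libraries (horizontal axis), for the 8 Klf genes (symbols) and as the median over all protein-coding genes with a peak there (black line). *Klf7* is widest on days 3 and 6 (1233 and 1226 bp), and *Klf10* in ESCs has the lowest value (523 bp).

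The sequence around these starts was rich in GC. The median GC content of the 300 bases around the midpoint was 69.3% for the 14 regions of the 8 loci within 1 kb of a start and 63.7% for 16750 such regions near all genes, against 48.0% and 47.3% for regions farther away. RefSeq promoters (GRCm38.p6) were found for 6 of the 8 genes. In the 250 bases before the start, GGGCGG on either strand, the letters of a GC box, was found in 5 of these 6, and in 32.7% of all promoters. CCAAT was found in 3 (*Klf6*, *Klf9* and *Klf13*), against 33.8% of all, and TATAAA in 0, against 12.4%. The KLF letters GGGCGTGG, which do not contain GGGCGG, stood in the *Klf13* promoter alone, against 4.79% of all promoters.

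Counted over the whole loci, the 8 genes had 37, 29, 23, 32, 29, 27 and 28 peaks, most of them on day 0 and fewest on day 2. The libraries of days 2 and 9 and of ESCs are also those with the fewest peaks in total. Per 10000 peaks within 20 kb of any protein-coding gene, the loci held 7.95 on day 0, between 8.03 and 8.51 on days 1 to 6, 10.05 on day 9 and 13.0 in ESCs. *Klf2* had 3, 4, 2, 2, 2, 3 and 4 peaks. *Klf5* had 1 peak on day 0 and on day 2, and 2 in each other library. *Klf9* had 5, 4, 3, 5, 4, 5 and 7. These 3 genes had more peaks in ESCs than on day 0, as 12.9% of the 18913 genes with any peak did. A single region can be called as several peaks, however. At *Klf9* 2 regions held 2 ESC peaks each, and counted as open regions the gene had 5 on day 0 and 5 in ESCs. That count depends on the merging. In the region upstream of *Klf9* open in every library, 1 ESC peak (chr19:23136230-23136496) met only the last base of a day 9 peak. By regions, *Klf2* (4 against 3) and *Klf5* (2 against 1) alone had more in ESCs than on day 0, as 11.9% of genes did. *Klf3* went from 7 on day 0 to 3 or 4 in the other libraries, *Klf7* from 6 to 2 or 3, *Klf6* from 3 on day 0 over 6 on day 1 to 2 in ESCs, and *Klf13* from 9 to 4, with 8 or 9 on days 3, 6 and 9. Some of these peaks were pieces of 1 region, and by open regions *Klf3* had 6 and *Klf7* 5 on day 0, and *Klf6* 5 on day 1. *Klf3*, *Klf6*, *Klf7* and *Klf13* had fewer peaks in ESCs than on day 0, as did 68.4% of all genes with any peak. They also had fewer open regions (68.2% of these genes). *Klf10* had 3 peaks in both libraries, against 18.8% of genes with equal numbers, and between 2 and 4 on doxycycline. On day 9, 1 gene, *Klf5*, had more peaks than on day 0 (11.8% of all genes did), 5 had fewer (62.8%) and 2 as many (25.5%). The additional *Klf5* peak was a second piece of its start region (587 and 200 bp), and by open regions no gene had more on day 9 (9.31% of all genes) and 6 had fewer (63.1%).

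**Figure D2:**
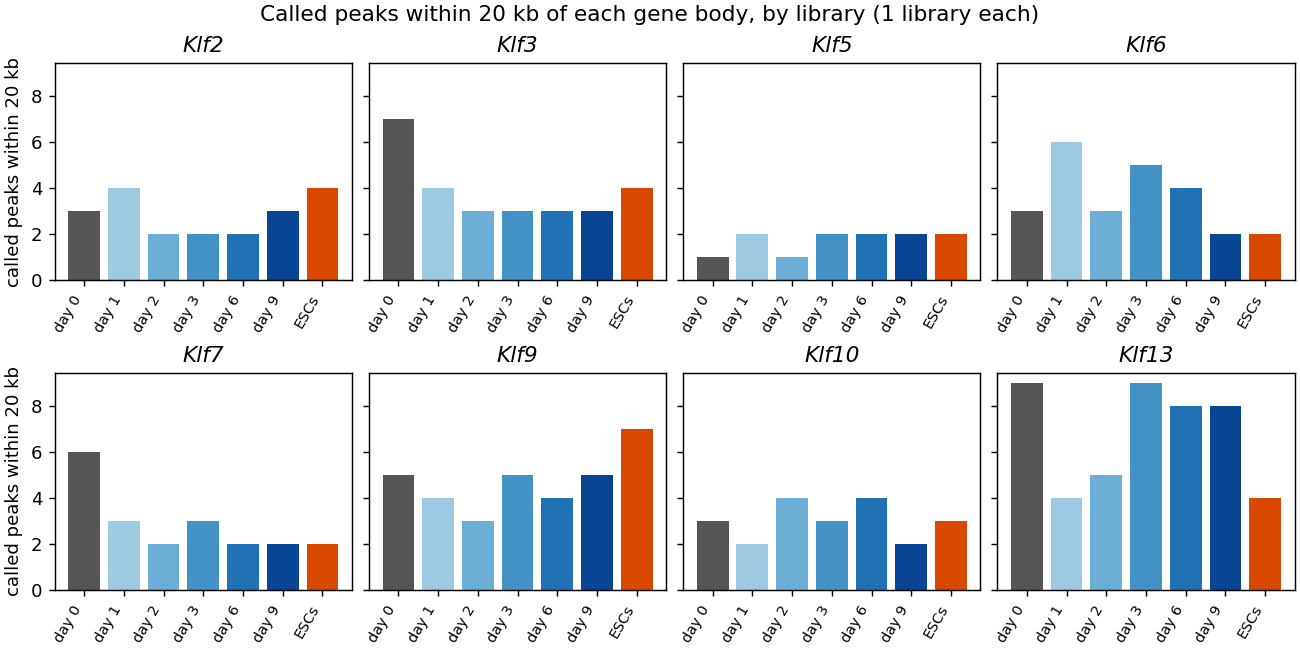
Called peaks within 20 kb of each gene body (vertical axis, bars from 0) in the 7 libraries (horizontal axis; 1 bar per library). *Klf2*, *Klf5* and *Klf9* have more peaks in ESCs than on day 0 (4 against 3, 2 against 1 and 7 against 5, the last with 2 regions holding 2 peaks each in ESCs and 5 open regions in both libraries), and *Klf3*, *Klf6*, *Klf7* and *Klf13* have fewer.

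Of the 61 regions, 14 lay within 1 kb of a start and 47 farther away. A peak in every library was found in 13 of the 61 (21.3%, exact 95% interval 11.9 to 33.7), against 12.6% of the background. A peak in ESCs and none on day 0 was found in 12 (19.7%, 10.6 to 31.8), against 11.6%. A peak on day 0 and none in ESCs was found in 21 (34.4%, 22.7 to 47.7), against 42.9%. A peak on at least 1 day of doxycycline and neither on day 0 nor in ESCs was found in 14 (23.0%, 13.2 to 35.5), against 30.1%. The remaining region, at *Klf6*, was open both on day 0 and in ESCs but not throughout (2.75% of the background). In 14 of the 61, the libraries with a peak did not follow each other in time, against 21.0%. The 12 regions with a peak in ESCs and none on day 0 were all among the 47 away from starts (25.5%, 13.9 to 40.3), where the background share is 13.0%, against 6.69% near starts. Away from starts, 3 of the 47 regions were open in every library (2.48% of the background), 18 on day 0 and not in ESCs (47.8%) and 13 on doxycycline alone (35.1%). These shares moved with the peaks used. With peaks at least 300 bp wide, 11 of 34 regions away from starts had a peak in ESCs and none on day 0 (32.4%, 17.4 to 50.5, against 13.9%), and 0 of 34 were open in every library (2.00% of the background). When the 27074 widest peaks per library were used, the first number was 12 of 31 (38.7%, 21.8 to 57.8), against 25.4% of the background, which then lay within the interval. Near starts, 10 of the 14 were open in every library (48.8%) and 1 on doxycycline alone (12.5%). The intervals cover counting error only, regions of 1 locus are not independent of each other, and no test was run on these shares.

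**Figure D3:**
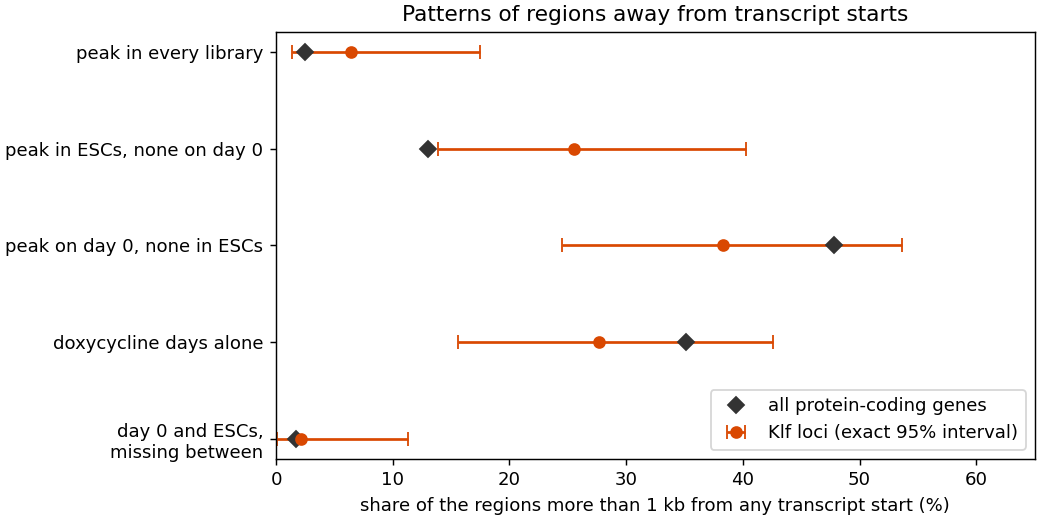
Share of regions more than 1 kb from any protein-coding transcript start (%, horizontal axis) with each pattern over the 7 libraries, for the 47 regions of the Klf loci (circles with exact 95% intervals) and the 59754 background regions (diamonds). The background lies below the interval for regions with a peak in ESCs and none on day 0 (13.0% against 13.9 to 40.3%) and within it for the other 4 patterns, whereas with the 27074 widest peaks of each library it lies within it for that pattern too (25.4% against 21.8 to 57.8%).

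The 12 regions with a peak in ESCs and none on day 0 lay at 7 of the 8 genes, with 3 each at *Klf2* and *Klf9*, 2 at *Klf13* and 1 each at *Klf3*, *Klf5*, *Klf7* and *Klf10*. *Klf6* had none. The first peak was found on day 1 in 2 of the 12, on day 3 in 1, on day 6 in 1, on day 9 in 2 and in ESCs in 6. These counts are by merged region. In 1 of the 2 with a first peak on day 1, at *Klf9*, the ESC peak overlapped the day 3 peak but not that of day 1. The background shares for these libraries were 13.5, 5.30, 3.78, 1.83 and 72.5%, with 3.08% for day 2.

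At *Klf2* (chr8:72319033-72321656, plus strand), which helps to keep ESCs in the naive state, the peaks of the MEFs and those of the ESCs lay at different places around the start. The region 7.83 kb upstream of the 5′ end (chr8:72310850-72311564) had no peak on days 0, 1, 2, 3 and 6, a peak of 402 bp on day 9 and one of 463 bp in ESCs. These peaks overlapped by 150 bp, the day 9 peak reaching farther upstream and the ESC peak closer to the gene. Its 300 bases held the octamer letters once and the AP-1 letters at 2 positions. The octamer letters lay under the ESC peak and outside the day 9 peak. Of the AP-1 positions, the one farther upstream lay under the day 9 peak alone and the other under both peaks. The region 2.75 kb upstream had a peak of 492 bp in ESCs alone, and the one 15.5 kb downstream of the 5′ end (chr8:72334303-72334700), which lies past the 3′ end of the gene, a peak of 398 bp in ESCs alone. By contrast, the region 15.2 kb upstream (chr8:72303508-72304134), at the 3′ end of the neighbouring gene *Gm10282*, had a peak in every library but ESCs, with widths of 590, 439, 404, 315, 509 and 426 bp in time order. Next to it, 15.9 kb upstream, a peak was found on day 0 (425 bp) and day 1 (200 bp) alone. Apart from the start, no region of the *Klf2* locus was shared between day 0 and ESCs. Outside regions at starts, this also held at *Klf5*, *Klf7* and *Klf10*. Of the background regions away from starts, 2.48% were open in every library and 1.68% on day 0 and in ESCs but not throughout.

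At *Klf13* (chr7:63886351-63938915, minus strand), whose product represses through Sin3A, the region 18.3 kb upstream (chr7:63956829-63957655) had no peak on day 0 and a peak in each other library, of 652, 681, 786, 786, 763 and 585 bp from day 1 to ESCs. It was the 1 region of the 61 with this pattern, which 0.767% of the background had. Its 300 bases held the octamer letters once. The region 49.6 kb into the gene, in the 3′ untranslated sequence, had peaks on day 9 (523 bp) and in ESCs (562 bp) alone, which overlapped by 483 bp. With the upstream *Klf2* region, these were the 2 regions that first had a peak on day 9 and also had one in ESCs, and the time of treatment and the change of medium before day 9 cannot be told apart. Inside *Klf13*, a region 35.1 kb from the 5′ end had peaks on day 3 (200 bp), day 6 (281 bp) and day 9 (322 bp), and one at 14.1 kb on day 6 (479 bp) and day 9 (418 bp), with none on day 0 or in ESCs. With peaks at least 300 bp wide, or with the 27074 widest of each library, the first of these was open on day 9 alone, and the second kept both peaks. The second ended at chr7:63925132, beside the region at 13.4 kb (chr7:63925160-63925817), which had a peak of 562 bp on day 0. Merging within 300 bp would join these neighbours. With that merging, 10 regions in place of 14 were open on doxycycline alone.

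The 3 regions near a start that had a peak on day 0 and none in ESCs were all at *Klf13*, whose transcripts start at several places. The region 1.23 kb into the gene, over coding sequence, had 218, 530, 0, 230, 204, 411 and 0 bp under peaks. That at 13.4 kb had 562, 0, 321, 467, 517, 0 and 0 bp, and that at 2.41 kb had a peak on day 0 alone. The 5′ end itself, 0.161 kb from the midpoint of its region, had 1095 bp on day 0, 716 bp in ESCs and 785 to 1094 bp between. In the background, 25.5% of regions near a start had a peak on day 0 and none in ESCs.

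**Figure D4:**
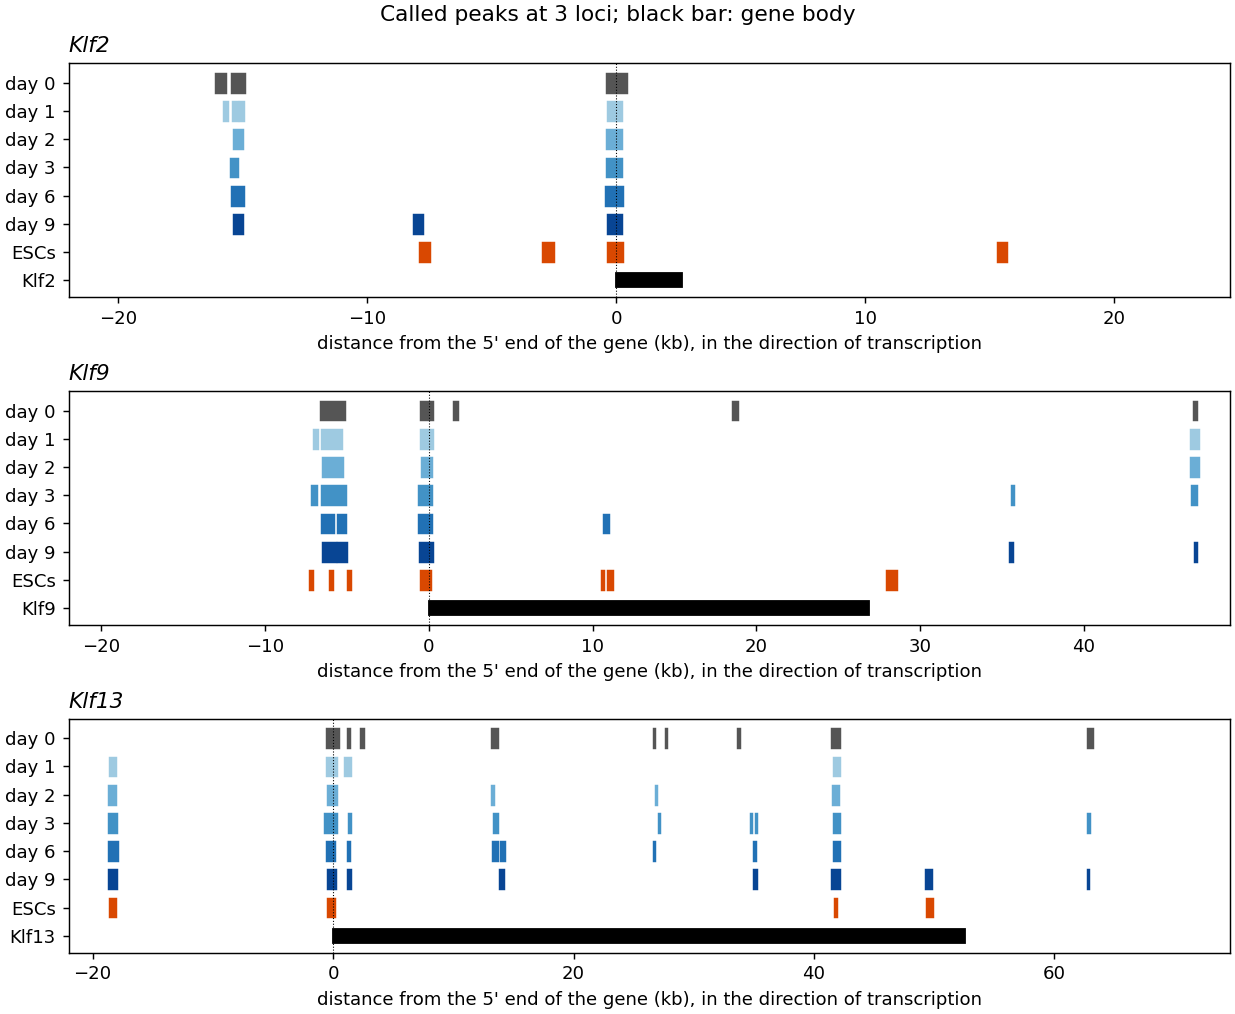
Called peaks (boxes, drawn to scale) of the 7 libraries (rows) at *Klf2*, *Klf9* and *Klf13*, by distance from the 5′ end in kb in the direction of transcription (horizontal axis), with the gene body in black. At *Klf2* the peaks 15.2 kb upstream end before ESCs while those 7.83 and 2.75 kb upstream appear on day 9 or in ESCs, and at *Klf13* the region 18.3 kb upstream has a peak in each library after day 0.

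*Klf9* (chr19:23141226-23168134, plus strand), a glucocorticoid-induced gene, also had 3 regions with a peak in ESCs and none on day 0. The region 28.3 kb from the 5′ end (chr19:23169155-23169839), past the end of the gene, had a peak of 685 bp in ESCs alone, the widest of the ESC peaks in regions open in ESCs alone. The intronic region at 10.9 kb had a peak of 359 bp on day 6 and peaks summing to 582 bp in ESCs. The region 7.04 kb upstream had peaks on day 1 (323 bp), day 3 (342 bp) and in ESCs (244 bp), of which the ESC peak did not overlap that of day 1. Next to it, 5.68 kb upstream and over the non-coding gene *2410080I02Rik*, the widest region of the 61 (1895 bp) was open in every library, with 1484, 1243, 1306, 1474, 1364, 1436 and 467 bp under peaks. The ESC value, the sum of peaks of 200 and 267 bp, was below all others there. The ESC peak of 267 bp met the peaks of other libraries only at the last base of a day 9 peak. The other 2 regions away from starts that were open in every library were also narrowest in ESCs, the one 41.8 kb into *Klf13* with 245 bp against 591 to 754 bp in the other libraries and the one 2.84 kb into *Klf3* with 202 bp against 279 to 586 bp. With peaks at least 300 bp wide none of the 3 had a peak in ESCs. Of the 3, those at *Klf9* and *Klf13* lay within 1 kb of the starts of *2410080I02Rik* and *Gm27252*, which are not counted as starts here. Near starts, 6 of the 10 regions open in every library were narrowest in ESCs, against 47.4% of the background. In the background, 49.9% of the regions away from starts were narrowest in ESCs, with a median of 435 bp there and 621 bp on day 0.

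*Klf5* (chr14:99298691-99315036, plus strand), which acts in the same network as *Klf2*, had the fewest regions, 3. Beside its start, a region 26.1 kb from the 5′ end (chr14:99324483-99325084), past the end of the gene, had 0, 0, 0, 325, 200, 0 and 602 bp under peaks, the ESC peak being the widest. A region of 365 bp at 5.95 kb, over untranslated sequence, had a peak on day 1 alone. The remaining regions open in ESCs alone lay at *Klf3*, 15.1 kb upstream (479 bp), at *Klf7*, 42.4 kb into the gene (341 bp), and at *Klf10*, 12.6 kb upstream (544 bp), the last of them close to the start of the non-coding gene *Gm35248*. In all, 6 of the 61 regions were open in ESCs alone (9.84%), against 8.40% of the background, and their median width was 485.5 bp against 295 bp.

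The 21 regions with a peak on day 0 and none in ESCs were spread over 7 genes, with 7 at *Klf13*, 4 at *Klf7*, 3 each at *Klf3* and *Klf9*, 2 at *Klf2* and 1 each at *Klf6* and *Klf10*. Of these, 10 had no peak after day 0 (47.6%), against 51.7% of such regions in the background. The last peak was that of day 1 in 2, of day 3 in 1, of day 6 in 3 and of day 9 in 5 (23.8%). The background shares for these days were 4.44, 7.53, 13.6 and 21.4%, with 1.37% for day 2. Over all regions, 16.4% of the 61 and 22.2% of the background were open on day 0 alone. At *Klf3* (chr5:64803388-64832901, plus strand), whose product represses through CtBP, the region 7.43 kb upstream had a peak of 524 bp on day 0 alone and that 14.0 kb into the gene one of 256 bp, while that 31.0 kb from the 5′ end, past the gene, had peaks on day 0 (507 bp) and day 1 (352 bp). At *Klf7* (chr1:64029447-64122282, minus strand), peaks on day 0 alone lay 12.2 kb upstream (200 bp) and 43.7 kb (446 bp) and 81.8 kb (410 bp) into the gene, the second of them at the start of the antisense gene *Gm13748*. At *Klf9* they lay 1.62 kb (290 bp) and 18.7 kb (404 bp) into the gene, and at *Klf13* 2.41 kb (356 bp), 27.7 kb (200 bp) and 33.7 kb (200 bp) into it. The smallest width in each list is 200 bp, so 3 of these 10 peaks were of the smallest size. These day 0 counts moved with the number of peaks called. When each library was cut to its 27074 widest peaks, the number in the ESC library, regions with a peak on day 0 and none in ESCs numbered 6 in place of 21. The background share of this pattern away from starts fell as well, from 47.8% to 28.8%. Of the 10 open on day 0 alone, 1 stayed so, while all 12 with a peak in ESCs and none on day 0 and all 6 open in ESCs alone did. This setting removes no ESC peak. With peaks at least 300 bp wide, 5 of the 10, 11 of the 12 and 10 of the 13 open in every library stayed. Of the 14 open on doxycycline alone, 7 still had a peak at this width and 9 among the widest peaks.

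At *Klf6* (chr13:5861482-5870394, plus strand), 4 of the 7 regions were open on doxycycline alone, as were 4 of the 15 at *Klf13*, 2 each at *Klf7* and *Klf10*, 1 each at *Klf5* and *Klf9* and none at *Klf2* and *Klf3*. The region 16.9 kb upstream (chr13:5844338-5844789) had 0, 308, 213, 243, 200, 0 and 0 bp under peaks, of which that of day 1 alone reached 300 bp. The next region, 16.1 kb upstream, had 779, 0, 0, 0, 200, 0 and 409 bp, so these neighbouring sites shared only day 6. This contrast depends on the merging, since the next region begins at chr13:5844999 and merging within 300 bp would join both. Downstream, 10.1 kb from the 5′ end (chr13:5871296-5871937), a region had 528, 594, 509, 545, 642, 542 and 0 bp under peaks, and so lacked a peak in ESCs alone. The other regions open on doxycycline alone were the ones 25.5 kb from the 5′ end on day 1 (456 bp) and day 3 (476 bp), at the start of the non-coding gene *Gm47507*, and smaller ones on day 1 (268 bp) and day 3 (233 bp). None of the 61 regions was open on all 5 days of doxycycline but neither on day 0 nor in ESCs, a pattern of 2.72% of the background.

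*Klf10* (chr15:38291463-38300706, minus strand), the TGF-β early gene, had 2 regions open in every library, at its 5′ end and 1.38 kb into the gene, where further transcripts start. The second had 1019, 1035, 1038, 999, 864, 931 and 714 bp under peaks. Farther upstream, at 13.5 kb, a region was open on day 3 (281 bp) and day 6 (422 bp), and the ESC peak 12.6 kb upstream lay beside it. *Klf3* likewise had a second start open throughout, 8.56 kb into the gene, with 773 bp in ESCs and 884 to 1150 bp in the other libraries.

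**Figure D5:**
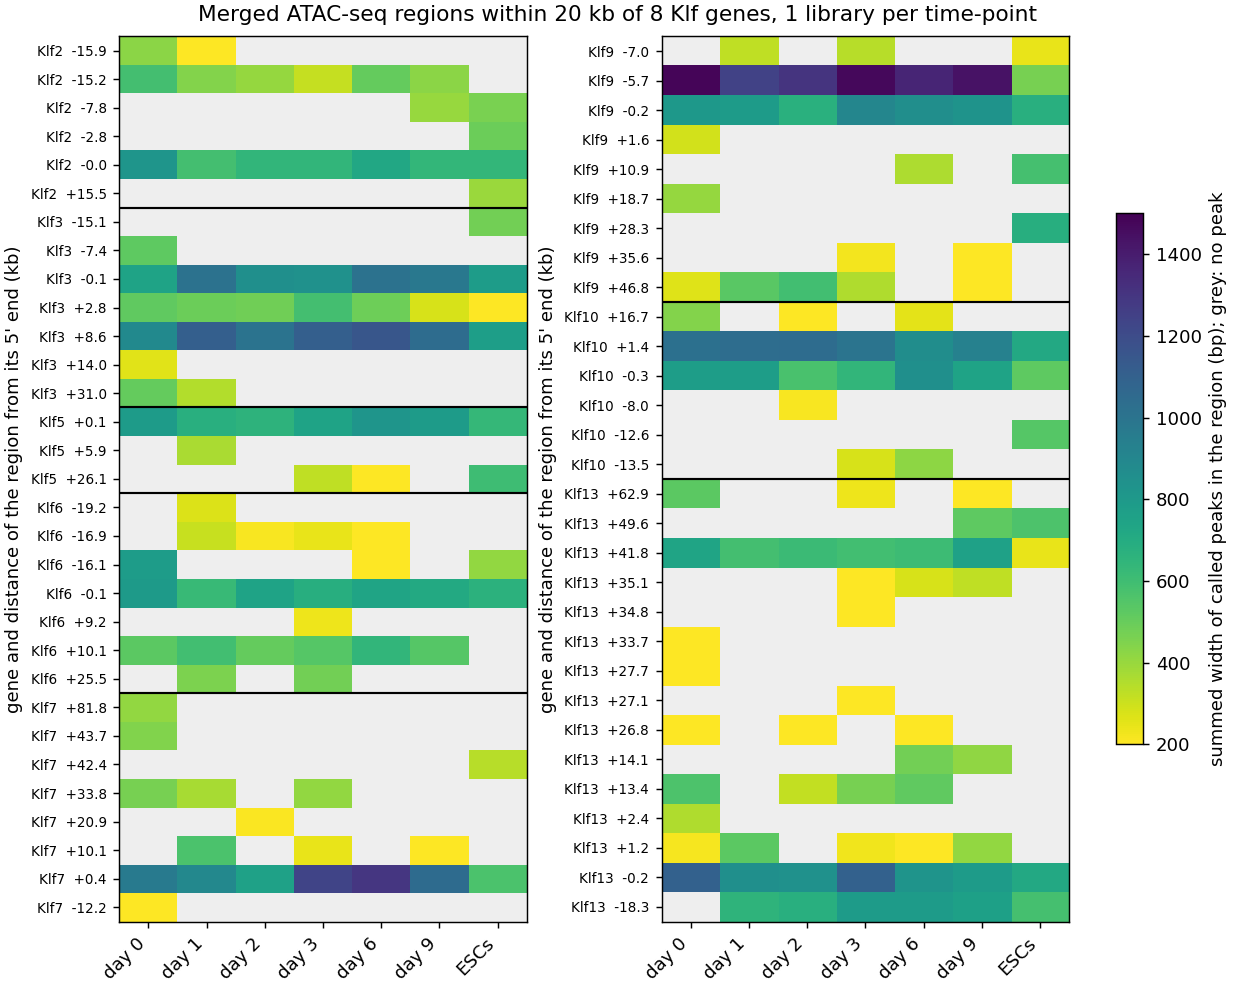
All 61 regions (rows, by gene and distance of the midpoint from its 5′ end in kb) in the 7 libraries (columns), coloured by the summed width of called peaks in bp, with grey for no peak. The rows near 0 kb are filled in every library, and the regions with a peak in ESCs alone, such as those 2.75 kb upstream and 15.5 kb downstream of the *Klf2* start, are filled in the last column alone.

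Of the 37 day 0 peaks at the loci, 22, 20, 22, 21, 19 and 15 were found again in the libraries from day 1 to ESCs. These are 59.5% (exact 95% interval 42.1 to 75.2), 54.1%, 59.5%, 56.8%, 51.4% and 40.5% (24.8 to 57.9). For the 46525 day 0 peaks near all protein-coding genes the shares were 48.8, 38.6, 49.8, 48.5, 38.8 and 25.8%. Of the 28 ESC peaks, 14 were found on day 0 (50.0%, 30.6 to 69.4), against 57.6% in the background, and 14, 14, 16, 18 and 17 on days 1, 2, 3, 6 and 9, against 58.3, 54.0, 61.3, 62.0 and 57.7%. The share of day 0 peaks found again was above that of the background in each of the 6 libraries. The background share lay within the exact interval of the Klf loci in each case, for the day 0 and for the ESC peaks. The 6 comparisons reuse the same 37 day 0 peaks and are not independent. All day 0 peaks found in ESCs lay in the 13 regions open in every library or in the *Klf6* region 16.1 kb upstream. Of these 13 regions, 10 were near a start, and the background shares here are not matched for distance from starts. With the 27074 widest peaks of each library, 70.0% of the remaining 20 day 0 peaks were found in ESCs. The share over all genes with this setting is not given here, so the rise cannot be read as a trait of the Klf loci.

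The searched letters were found in few of the regions. GGGTGTGG stood in 4 of the 12 regions with a peak in ESCs and none on day 0 (8.39% of such regions in the background), in 1 of the 21 with a peak on day 0 and none in ESCs (3.38%), in 3 of the 14 open on doxycycline alone (7.08%) and in 0 of the 13 open in every library (4.24%). The octamer letters ATGCAAAT stood in 3 regions, at *Klf2*, *Klf7* and *Klf13*, all of them among the 12 with a peak in ESCs and none on day 0, where the background share was 4.96%. The AP-1 letters TGACTCA stood in 3 of these 12 (6.15% of the background) and in 3 of the 21 with a peak on day 0 and none in ESCs (25.5%). ACATTCC (TEAD) was found in 5 of the 61 regions (6.96% of the background), ACAATGG (SOX) in 2 (4.73%), TGTGGTT (RUNX) in 1 (7.74%), GGGCGTGG in 1 (3.08%), and TCAAGGTCA (ESRRB) and AGGGGGCGC (part of the CTCF site) in 0 (0.558 and 1.05%). These are matches of letters on either strand, and binding was not measured here.

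Of the other 18 genes of the Klf and Sp family, 8 had a peak within 1 kb of a start in every library (*Klf4*, *Klf11*, *Klf12*, *Klf16* and *Sp1* to *Sp4*), 5 in none (*Sp5* to *Sp9*) and 5 in some. *Klf17* was the 1 gene with a start peak in ESCs and none on day 0, and none had the reverse. At *Klf4*, whose coding sequence is also in the induced cassette and could add reads to its exons, 4 peaks were called on days 0 and 1, 2 on days 2 and 3, 3 on days 6 and 9 and 2 in ESCs. *Klf1*, *Klf8* and *Klf15* lacked a start peak on day 9 alone, and *Klf14* had one on day 0 and in ESCs alone. The median number of peaks per 100 kb of locus was 5.23 on day 0 and 3.99 in ESCs for these 18 genes, 6.59 and 5.04 for the 8 genes described here, and 3.94 and 1.95 for all protein-coding genes.

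The profile of each gene over the 7 libraries, as bp under peaks within 20 kb relative to the total of the library, was compared with those of 10603 genes with at least 5 regions, a limit that *Klf5*, with 3, does not itself meet. The gene most like *Klf2* was *Ddb2* (Pearson r = 0.995), and that most like *Klf5* was *Ttc9b* (0.995). For *Klf3* it was *Kcnj14* (0.987), for *Klf6* *Dock1* (0.964), for *Klf7* *Mlxip* (0.932), for *Klf9* *Zfp597* (0.986), for *Klf10* *Cdkn2c* (0.990) and for *Klf13* *Rnf157* (0.983). The next in order were *Il11*, *Arf4*, *Uspl1*, *Gigyf2*, *Memo1*, *Zer1* and *Lrrc29* for *Klf2*, *Klf5*, *Klf3*, *Klf6*, *Klf7*, *Klf9* and *Klf10*, with r between 0.929 and 0.992. With 7 points per profile and a search over 10603 genes, values this close to 1 are a description of order only, and the profiles share the libraries and their totals.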

How the data were processed

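ATAC-seq was performed by the authors on 6 MEF-derived libraries and 1 ESC library, 1 per time-point, and the libraries were grouped by time-point from the labels. Reads were cut to 50 bp with Trimmomatic by the authors, aligned to mm10 using Bowtie2, freed of duplicates with Picard, downsampled to a common depth and used for peak calling per library with MACS2 (q-value limit 0.05). The deposited values are peak positions (start and end) without score or signal, so the depth behind a peak is unknown. Their minimum width is 200 bp.

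Peaks within 20 kb of a gene body (GENCODE M21) were counted at an overlap of at least 1 bp, touching or overlapping peaks of the 7 libraries were merged, and positions are counted from 1. A start is that of a protein-coding transcript, and near means within 1000 bp. For shares, 95% intervals are Clopper-Pearson and cover counting error alone. No p-value was computed, there being 1 library for each time-point. Merged regions were checked against those of BEDTools 2.31.1, and the code was tested on simulated data. Python 3.11.15, numpy 2.4.6, scipy 1.17.1, pysam 0.24.0, samtools 1.23.1 and matplotlib 3.10.9 were used. Letters were searched in 300 bases around the midpoint of each region, on both strands. Likeness was searched among genes with at least 5 regions, whatever the number at the Klf gene itself, and 2 genes were named for each, except that the second for *Klf13* is not reported here.

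The genes, marker lists and letters were chosen with earlier results of these data known. The rule for naming regions took those with a peak in every library, in each library after day 0, on all doxycycline days alone, in ESCs alone or on day 0 alone, with at most 3 per pattern and gene, and the other regions named were chosen after their values were seen. The alternatives tried were peaks at least 300 bp wide, 10 kb on each side, merging within 300 bp, the 27074 widest peaks of each library, the 5 libraries shown in the paper, an overlap of 50% of both peaks, the 5′ end of the gene record alone and 500 bp around a start. Counting open regions in place of peaks per gene, and the 300 bp and widest-peak settings for the shares away from starts, were added after the data were seen.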

Additional observations from a re-analysis of the deposited data

How the results depend on the processing

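The alternatives were applied to the counts they bear on and gave 86 values, between 5 and 22 for each alternative, of which 75 stayed within the interval or 1.5 times the reported value. The directions per gene were recomputed by regions alone, and the widths, letters and likeness were not recomputed. Of the 11 that moved, 8 came from the use of the 27074 widest peaks in each library. With it, regions with a peak on day 0 and none in ESCs numbered 6, the peaks at the loci numbered 20 on day 0 and 21 on day 3, and the share of day 0 peaks found again was 80.0, 80.0, 75.0 and 70.0% for days 2, 6 and 9 and ESCs. This setting removes the narrower peaks of the libraries with more peaks and none of the ESC peaks. The shares found again over all genes with this setting are not given here. The share of regions away from starts with a peak on day 0 and none in ESCs was 16.1% with it, against 28.8% of the background. With peaks at least 300 bp wide, 0.00% of the regions away from starts were open in every library. Counted by open regions, 0 genes had more on day 9 than on day 0, and 2 had as many in ESCs as on day 0. The last 4 values for the Klf loci come from alternatives chosen after the data were seen. The values under the other 6 alternatives did not move by more than the limits above. No paired analysis was possible because there is 1 library for each time-point, and for the same reason no replicate could be left out. The lists hold no reads or scores, so the depth behind a peak is unknown, and a weak site cannot be told apart from a closed one. Differences between time-points and differences between single libraries cannot be told apart either.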

Other observations

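Of the 61 regions at the Klf loci, 14 had peaks in libraries that do not follow each other in time (23.0%, exact 95% interval 13.2 to 35.5), against 21.0% of regions near all protein-coding genes. In *Klf7*, a region 10.1 kb into the gene had peaks on day 1 (569 bp), day 3 (242 bp) and day 9 (200 bp) and none on days 2 and 6. At *Klf10*, a region 16.7 kb from the 5′ end had peaks on day 0 (440 bp), day 2 (205 bp) and day 6 (253 bp). In *Klf13*, a region 26.8 kb into the gene had a peak of 200 bp, the smallest width in the lists, on each of days 0, 2 and 6. Downstream of *Klf9*, 46.8 kb from the 5′ end, a region had 262, 531, 592, 353, 0, 200 and 0 bp under peaks from day 0 to ESCs, and thus lacked one on day 6 between those of days 3 and 9.

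Away from starts, 16 of the 47 regions at the Klf loci were open in ESCs (34.0%), against 17.1% of the background, and 22 on day 0 (46.8%), against 52.0%. On day 9 the number was 13 (27.7%), against 23.3%.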
